A study of Mus musculus with 16 samples.

Results

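The 10 genes described here belong to the integrated stress response and to the serine synthesis pathway that this response feeds. They are the transcription factors Atf4, Atf3 and Ddit3, the effectors Chac1, Trib3, Sesn2 and Ddit4, and the biosynthetic enzymes Asns, Phgdh and Psat1. Members were found as all probes of the non-normalized array table whose platform gene symbol is one of these names, which gave 14 of 25697 probes and 10 of 16590 named genes. All 14 probes passed the filter on dim signal, and all 10 genes were among the 9455 tested. Asns had 3 probes, Ddit3 and Sesn2 had 2 each, and the other genes had 1.

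Total RNA of mouse cells was hybridised to Illumina BeadChips, with 1 array for each of 16 independent dishes and 4 dishes in each of 4 groups. MEF were embryonic fibroblasts of strain CD1, grown in DMEM with 10% serum. OKM cells were the intermediate stage of a stepwise induction (3F-CD1 in the sample titles) and iPS cells the induced pluripotent cells (3F-SOX2-CD1), both of strain CD1. ES cells (R26) were of strain 129. The labels do not spell out the factors behind the name OKM, nor whether the dishes of a group came from 1 clone. OKM, iPS and ES cells shared a medium with 15% serum and LIF at 10 ng/ml. It also held HEPES, L-glutamine and non-essential amino acids at 2 mM each, and 100 μM of beta-mercaptoethanol. All 3 were kept on primary MEF feeders treated with mitomycin C. In each comparison with MEF, the stage of the cells, the medium and feeder RNA therefore cannot be told apart, and in each comparison with ES cells the strain cannot be told apart from the cell type.

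In the integrated stress response, kinases that sense amino acid shortage, unfolded protein, double-stranded RNA or heme shortage phosphorylate the initiation factor eIF2. General translation then slows while translation of the Atf4 mRNA increases. The ATF4 protein activates genes for amino acid uptake and synthesis, aminoacyl-tRNA synthetases and, when stress lasts, Ddit3 (CHOP), Chac1 and Trib3. ATF4 is regulated largely at translation, so an mRNA level is no readout of its protein. Proliferating cells, pluripotent cells among them, use serine made from glycolytic intermediates for glycine and one-carbon units.

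Levels are given as normalized log2 intensity, so a difference of 1 is a 2-fold difference. A gene was called higher or lower where limma's adjusted p was under 0.05 over all 9455 genes and the change was at least 2-fold, and "rose" and "fell" are used only for such calls. The p-values rest on the spread between dishes, pooled for each gene over the 4 groups. Probes differ in brightness for reasons other than abundance, so no probe's level is set against another probe's. In these bulk samples, fewer cells of a type and less RNA per cell cannot be told apart.

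Raw median intensity was 114.7 to 134.2 per array, 44.9% to 49.1% of probes were detected, and arrays of 1 group correlated at 0.984 or more. All 10 pluripotent cell markers were detected on every iPS and every ES array and on no MEF array. OKM arrays held 7 of the 10 on every array and lacked Esrrb and Utf1 on all. All 12 tested fibroblast markers were detected on every MEF array, and all 7 tested macrophage markers were too. The fourth ES array, replicate 5, stood apart. It had 118 genes at least 2-fold below all other ES arrays, where no other array of the study had more than 4 such genes in its own group. At 8 of the 10 genes described here it was the lowest ES array, against 29.6% of all tested genes. At 2 of them, Chac1 and Atf3, it lay at least 2-fold below the others, against 1.25% of all tested genes. Results on members that involve ES cells are also given without this array where it changed a call, or the side of 0.05 on which the adjusted p lay.

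The first comparison, OKM cells against MEF, asks what differed after the first step of the induction. Ddit3, Chac1, Trib3, Atf4 and Sesn2 fell, none of the 10 genes rose, and the enzymes Asns and Phgdh differed by less than 0.1. Of the 10 genes, 5 were called lower, against 15.8% of all tested genes, and 0 were called higher, against 16.1% of all tested genes (2 were higher at an unadjusted limma p under 0.05, Ddit4 and Psat1). The median change of the 10 was -0.76, and that of all genes was 0.02. Markers of other cell types moved in the same comparison. All 12 tested fibroblast markers were lower in OKM cells (median -3.25), and so were all 7 tested macrophage markers (median -3.91), of which C1qa, C1qb, C1qc, Adgre1 and Tyrobp were detected on no OKM array. The part of either cell type in the fall was not tested.

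Ddit3 encodes CHOP, a C/EBP family transcription factor linked to cell death under lasting endoplasmic reticulum stress. Its brighter probe read 12.22, 12.57, 12.17 and 12.29 in the MEF dishes and 8.94, 8.98, 9.06 and 9.31 in the OKM dishes. The lowest MEF array lay far above the highest OKM array. Ddit3 fell by 3.24 ± 0.17 (SE) on the log2 scale, a 9.47-fold difference (limma adjusted p = 1.053e-11). Its second probe had group means of 10.50 in MEF and 7.15 in OKM cells and gave a change of -3.35 ± 0.19 (adjusted p = 2.251e-11 over all kept probes), so both probes showed the fall.

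Chac1 encodes an enzyme that degrades glutathione. In MEF it read 13.04, 13.04, 12.98 and 12.94, and in OKM cells 10.08, 9.48, 9.38 and 9.96. All OKM arrays lay below all MEF arrays, and the OKM dishes were more spread (SD 0.35 against 0.05). Chac1 fell by 3.27 ± 0.38, or 9.67-fold (limma adjusted p = 4.913e-07).

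Trib3 encodes a pseudokinase that is induced by ATF4 and CHOP and restrains ATF4 in turn. Its levels were 9.78, 10.12, 9.80 and 9.87 in MEF and 8.57, 8.45, 8.53 and 8.75 in OKM cells. The groups did not overlap, and the change was -1.31 ± 0.21 (2.49-fold, limma adjusted p = 2.866e-05).

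Sesn2 encodes a sestrin, a leucine sensor that restrains mTORC1. The brighter probe read 8.95, 9.32, 9.09 and 9.11 in MEF. The OKM arrays lay close together, with a mean of 8.08 ± 0.06 (SD, n = 4) and a highest value of 8.13, below every MEF array. The fall of 1.04 ± 0.13 (limma adjusted p = 1.32e-06) was just past the 2-fold threshold. It was -0.97 without MEF replicate 2, -0.84 with the mean of both probes, -0.85 with no background correction, -0.95 with an offset of 50 and -0.99 in the last 8 array columns, and in none of these did it pass 2-fold. The second, dimmer probe gave -0.65 ± 0.17 (adjusted p = 0.002714), below the threshold of 2-fold.

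The Atf4 probe was dim. It read 7.96, 7.21, 7.59 and 6.92 in MEF and 6.52, 5.72, 6.16 and 6.36 in OKM cells, where replicate 2 was not detected. The groups did not overlap, although the lowest MEF and the highest OKM array came close to each other. Atf4 fell by 1.23 ± 0.36 (2.35-fold, limma adjusted p = 0.00572), but the change was -0.94 with a larger background offset and -0.70 with no background correction, which did not reach 2-fold.

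The promoters of these 5 genes are shown because the genes all fell at this step, each as the 250 bases before and 50 after the RefSeq transcription start (build GRCm38.p6, 5′ to 3′ on the gene's strand). Capitals mark matches on either strand to TGATGNAA, the C/EBP-ATF response element that ATF4 dimers bind. The windows were chr10:127290543-127290842 for Ddit3 (plus strand), chr2:119350992-119351291 for Chac1 (plus strand), chr2:152344011-152344310 for Trib3 (minus strand), chr4:132510407-132510706 for Sesn2 (minus strand) and chr15:80254934-80255233 for Atf4 (plus strand).
Ddit3: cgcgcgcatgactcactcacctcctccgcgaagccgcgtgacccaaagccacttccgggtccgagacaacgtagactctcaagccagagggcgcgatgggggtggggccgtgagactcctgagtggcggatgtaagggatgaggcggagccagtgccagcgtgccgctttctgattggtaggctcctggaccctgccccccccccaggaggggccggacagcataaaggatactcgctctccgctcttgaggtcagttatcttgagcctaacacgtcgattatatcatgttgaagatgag
Chac1: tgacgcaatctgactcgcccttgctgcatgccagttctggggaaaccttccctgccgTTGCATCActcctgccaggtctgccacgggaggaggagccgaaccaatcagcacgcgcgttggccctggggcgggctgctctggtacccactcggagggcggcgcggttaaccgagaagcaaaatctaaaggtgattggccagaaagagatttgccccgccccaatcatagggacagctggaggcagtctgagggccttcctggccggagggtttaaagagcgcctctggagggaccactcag
Trib3: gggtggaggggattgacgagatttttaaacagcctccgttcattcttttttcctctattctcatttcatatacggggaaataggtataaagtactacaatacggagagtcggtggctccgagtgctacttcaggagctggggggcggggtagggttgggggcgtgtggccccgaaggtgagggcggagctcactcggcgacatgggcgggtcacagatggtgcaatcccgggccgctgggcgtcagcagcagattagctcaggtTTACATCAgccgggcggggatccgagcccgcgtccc
Sesn2: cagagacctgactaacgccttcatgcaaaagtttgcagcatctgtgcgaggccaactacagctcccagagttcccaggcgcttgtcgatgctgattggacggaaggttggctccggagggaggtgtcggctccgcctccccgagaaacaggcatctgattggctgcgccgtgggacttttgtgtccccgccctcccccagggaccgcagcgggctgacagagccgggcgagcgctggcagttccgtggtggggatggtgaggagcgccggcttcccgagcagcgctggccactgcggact
Atf4: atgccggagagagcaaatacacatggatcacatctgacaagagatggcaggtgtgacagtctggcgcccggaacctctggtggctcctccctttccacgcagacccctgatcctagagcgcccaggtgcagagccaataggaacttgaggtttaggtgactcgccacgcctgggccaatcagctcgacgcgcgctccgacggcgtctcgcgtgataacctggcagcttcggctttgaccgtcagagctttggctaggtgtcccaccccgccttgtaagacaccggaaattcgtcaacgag

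Among the 5, Chac1 held 1 match, from -193 to -186 of the start, and Trib3 held 1, from 15 to 22. Both were on the strand opposite to the gene. The motif was present in the window of 4 of the 10 genes and in 3.97% of all 32851 promoter windows of the same length. The other matches were in Asns and Atf3, neither of which was called at this step, and are shown with the bases around them. The Asns window is chr6:7693214-7693243 and the Atf3 window chr1:191183425-191183454, both on the minus strand.
Asns: tcccagccacaTGATGAAActtcccgcacg
Atf3: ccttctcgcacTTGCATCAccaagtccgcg

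The second motif searched, TGACGTCA, the palindromic cAMP response element, was in none of the windows of the 10 genes and in 1.79% of all windows. A match describes these letters in this window only, and a motif elsewhere in a gene was not searched for.

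**Figure D1:**
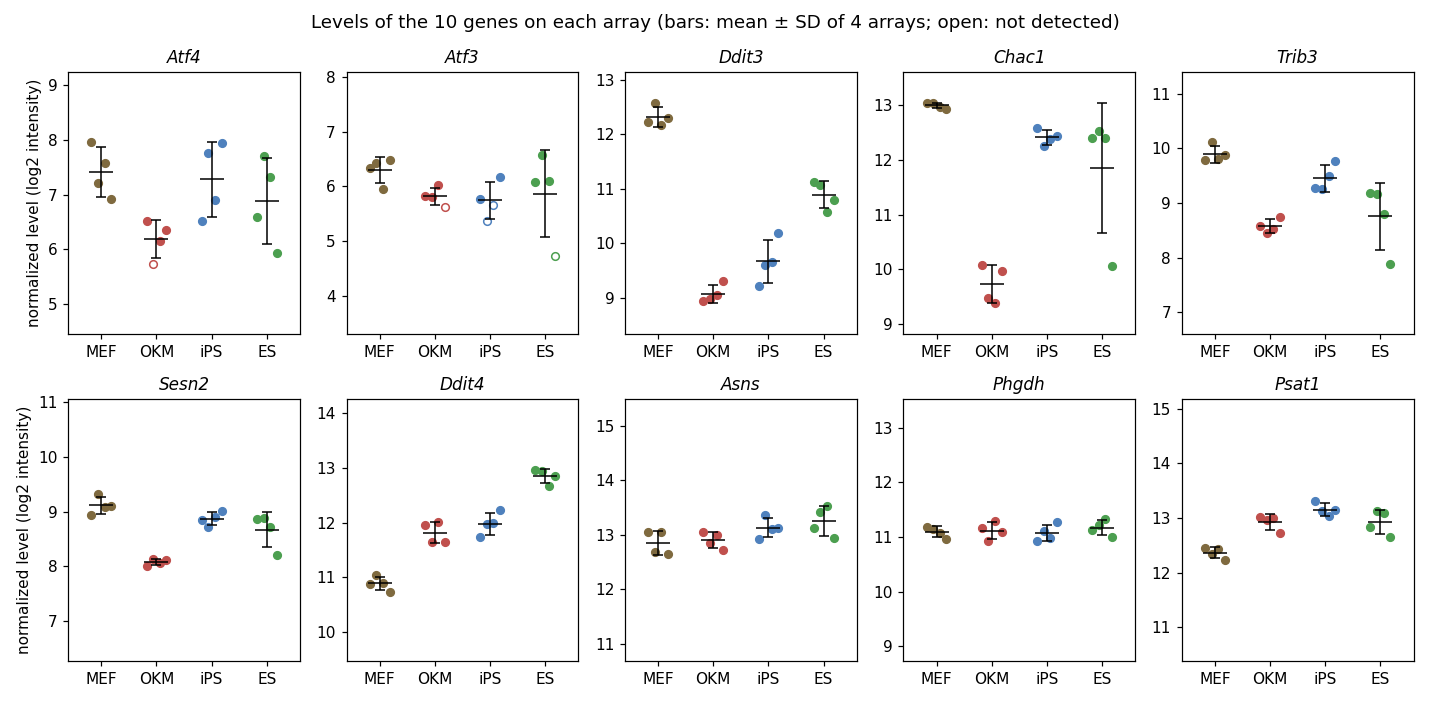
Normalized log2 level of each of the 10 genes (brightest probe) on every array, by group, with the mean and SD of 4 arrays as black bars and open points where the probe was not detected. All panels span the same range of 4.8 log2 units, so Ddit3 and Chac1 show the widest drop from MEF to OKM, while the Phgdh points lie between 10.92 and 11.32 in all groups.

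None of the other 5 genes was called at this step. Ddit4 encodes REDD1, an mTORC1 inhibitor induced by several stresses. It read 10.87, 11.04, 10.90 and 10.73 in MEF and 11.96, 11.65, 12.02 and 11.64 in OKM cells. Every OKM array was above every MEF array, and the difference of 0.93 ± 0.12 had a limma adjusted p of 1.811e-06 but was 1.91-fold, short of the threshold. In the last 8 array columns alone it was 1.10 and was called higher (limma adjusted p = 0.0001294).

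Psat1, the transaminase of the second step of serine synthesis, read 12.44, 12.34, 12.44 and 12.24 in MEF and 13.02, 12.97, 12.99 and 12.72 in OKM cells. The groups did not overlap, and the difference was 0.56 ± 0.11 (1.47-fold, limma adjusted p = 0.00022), below the threshold of 2-fold. Phgdh, the dehydrogenase that commits 3-phosphoglycerate to serine, had a mean of 11.09 ± 0.10 (SD, n = 4) in MEF and 11.12 ± 0.15 in OKM cells. Its change of 0.02 had a 95% interval of -0.20 to 0.25. Asns, the synthetase that makes asparagine, had means of 12.85 ± 0.22 and 12.90 ± 0.15, and the interval of its change was -0.25 to 0.35. Those of the other Asns probes were 0.13 ± 0.32 and 0.13 ± 0.13 (SE). These intervals lie inside a 2-fold change for Phgdh, Psat1 and the brightest Asns probe.

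Atf3, a factor of the ATF and CREB family induced by many stresses, was near the detection limit. It was detected on 4 MEF, 3 OKM, 2 iPS and 3 ES arrays, with group means of 6.30, 5.82, 5.74 and 5.87. In none of the 6 comparisons was Atf3 called, and its difference between OKM cells and MEF was -0.48 with an interval of -1.07 to 0.11. Without ES replicate 5, where it was not detected, its difference of iPS from ES cells moved from -0.13 to -0.51 (limma adjusted p = 0.02111) and that of OKM from ES cells from -0.05 to -0.43 (limma adjusted p = 0.03707), neither reaching 2-fold.

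The second comparison, iPS cells against OKM cells, asks what differed after the second step. Chac1 and Atf4 rose, and no gene of the 10 fell. These are 2 of 10 called higher, against 7.28% of all tested genes, and 0 of 10 called lower, against 5.94% (also 0 at an unadjusted limma p under 0.05). OKM cells are shared by this comparison and the first, so a low OKM level enters both.

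In the iPS dishes Chac1 read 12.59, 12.25, 12.38 and 12.44, all more than 2 log2 units above the highest OKM array. It rose by 2.69 ± 0.38, or 6.46-fold (limma adjusted p = 1.234e-05). The iPS arrays still lay below all MEF arrays, with a difference of -0.58 (interval -1.38 to 0.22, limma adjusted p = 0.1709). The spread behind this interval was pooled over the 4 groups. Chac1 varied most in ES cells (SD 1.19, against 0.14 in iPS cells and 0.05 in MEF), which are not part of this comparison. The p-value therefore cannot settle whether iPS cells and MEF differed in Chac1.

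Atf4 read 6.52, 7.77, 6.90 and 7.95 in iPS cells. Replicate 1 was level with the highest OKM array, and the other iPS arrays lay above all OKM arrays. The rise of 1.10 ± 0.36 (2.14-fold, limma adjusted p = 0.01641) lost its call without OKM replicate 2 (0.94), without iPS replicate 2 (0.93) or without iPS replicate 4 (0.87). It also lost the call with no background correction (0.63), a larger offset (0.84) or the first 8 array columns alone (0.67).

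Trib3 read 9.28, 9.25, 9.49 and 9.77 in iPS cells, above all OKM arrays and below all MEF arrays. The difference from OKM cells was 0.87 ± 0.21 (1.83-fold, limma adjusted p = 0.002351), short of the threshold. Sesn2, with 8.85, 8.72, 8.91 and 9.01 on its brighter probe, was also above all OKM arrays, by 0.79 ± 0.13 (1.73-fold, limma adjusted p = 6.234e-05). Its second probe gave 0.41 ± 0.17 with overlapping arrays and did not pass (limma adjusted p = 0.05606 over all kept probes).

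Ddit3 remained low in iPS cells. The dishes read 9.22, 9.61, 9.66 and 10.19, so that replicate 1 lay below the highest OKM array and all iPS arrays lay far below the MEF arrays. The difference from OKM cells was 0.60 ± 0.17 (1.52-fold, limma adjusted p = 0.006512) and that from MEF was -2.64 ± 0.17 (6.24-fold, limma adjusted p = 1.661e-10). The second probe gave 0.33 (adjusted p = 0.1419) and -3.01 for the same differences. For Ddit4, Phgdh, Psat1, Atf3 and the brightest Asns probe the difference between iPS and OKM cells was between -0.07 and 0.23, and none passed the adjusted p. The third Asns probe differed by 0.34 ± 0.13 (adjusted p = 0.03869), below 2-fold.

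**Figure D2:**
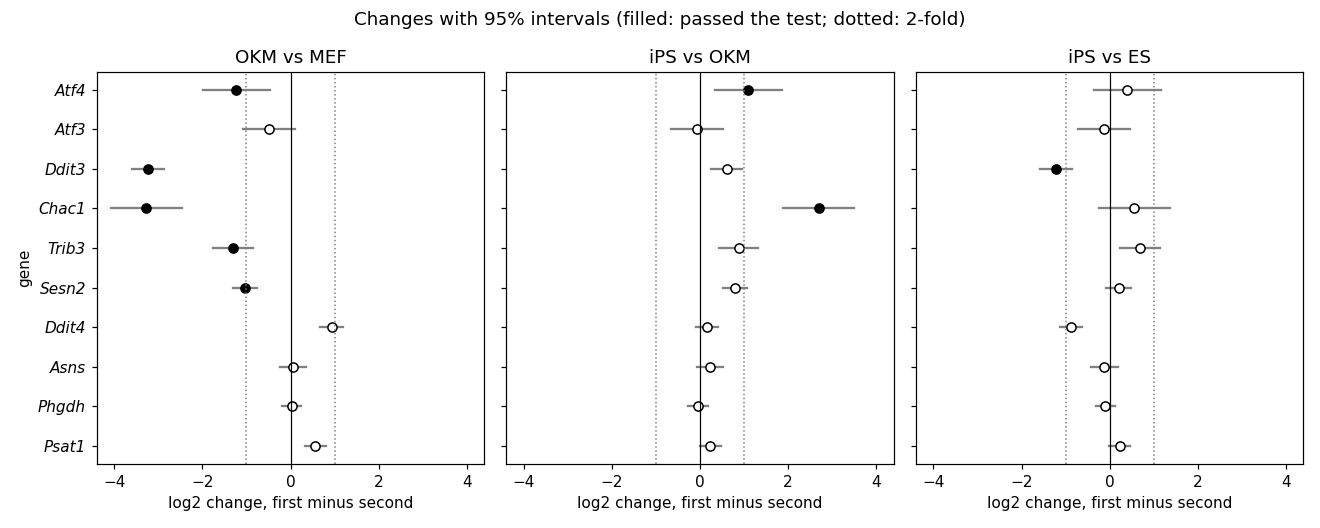
Log2 change of each gene with its 95% interval in OKM against MEF, iPS against OKM and iPS against ES, filled where the change was called and with dotted lines at 2-fold. In OKM against MEF 5 filled points lie to the left, and in iPS against OKM the filled points of Atf4 and Chac1 lie to the right.

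The third comparison sets iPS cells beside ES cells. Ddit3 was the 1 gene of the 10 called lower in iPS cells, against 7.28% of all tested genes, and 0 were called higher, against 11.2% (1 at an unadjusted limma p under 0.05, Trib3). Ddit3 read 11.12, 11.07, 10.58 and 10.80 in ES cells, above every iPS array. The difference was -1.22 ± 0.17 (2.33-fold, limma adjusted p = 8.391e-06) and -1.25 without ES replicate 5. The second probe gave -1.45 ± 0.19. Among the last 8 array columns alone, with 2 arrays in each group, it was -0.92 and was not called.

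Ddit4 had its highest levels in ES cells, at 12.95, 12.95, 12.67 and 12.85, against 11.73, 11.97, 11.99 and 12.23 in iPS cells. The groups did not overlap, and the difference of -0.88 ± 0.12 (1.84-fold, limma adjusted p = 6.484e-06) did not reach 2-fold. With median scaling it was -1.06, past the threshold.

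Chac1 in ES cells depended on 1 array. Replicates 1, 2 and 4 read 12.41, 12.53 and 12.41, within the range of iPS cells, and replicate 5 read 10.06, between the OKM arrays. The difference between iPS and ES cells was 0.56 (interval -0.24 to 1.36, limma adjusted p = 0.2105) with this array and -0.03 without it. Trib3 was 9.18, 9.16 and 8.79 in the same 3 arrays and 7.88 in replicate 5. Its difference of 0.70 ± 0.21 (limma adjusted p = 0.009507) was 0.40 without replicate 5. For Atf4 (6.59, 7.71, 7.32 and 5.93) and Sesn2 (8.87, 8.88, 8.73 and 8.21) replicate 5 was also the lowest, and neither gene passed the adjusted p between iPS and ES cells.

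Fibroblast markers were also low on this array. The levels of the 12 fibroblast markers were summed on the linear scale, where the brightest probes weigh most. The log2 of this sum was 12.02 in ES replicate 5 and 13.21 to 13.34 in the other ES arrays. It was 14.19 to 14.34 in OKM, 14.01 to 14.27 in iPS and 16.91 to 17.02 in MEF arrays. Replicate 5 was the lowest ES array at 10 of the 12 markers, against 29.6% of all tested genes, and Col1a2 and Col3a1 were detected on no ES or iPS array. Its sum of the 10 pluripotent cell markers, 16.88, lay within the range of 16.87 to 16.98 for ES arrays, and its sum of the 7 macrophage markers, 11.33, was below the 11.77 to 12.15 of the others. Of these 7, C1qa, C1qb, C1qc and Adgre1 were detected on no ES array, and Lyz2 alone read 11.13 on replicate 5. OKM and iPS arrays, whose fibroblast sums overlapped, differed by 2.69 in Chac1. Single markers did differ between these groups. Col1a1 and Col3a1 were called lower in iPS than in OKM cells, 16.7% of the 12 against 5.94% of all tested genes. By limma 0 of the 12 were called higher, against 7.28% (1 at an unadjusted p under 0.05). The part of feeder cells in the low levels of this array, or in the Chac1 levels of any group, was not tested.

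**Figure D3:**
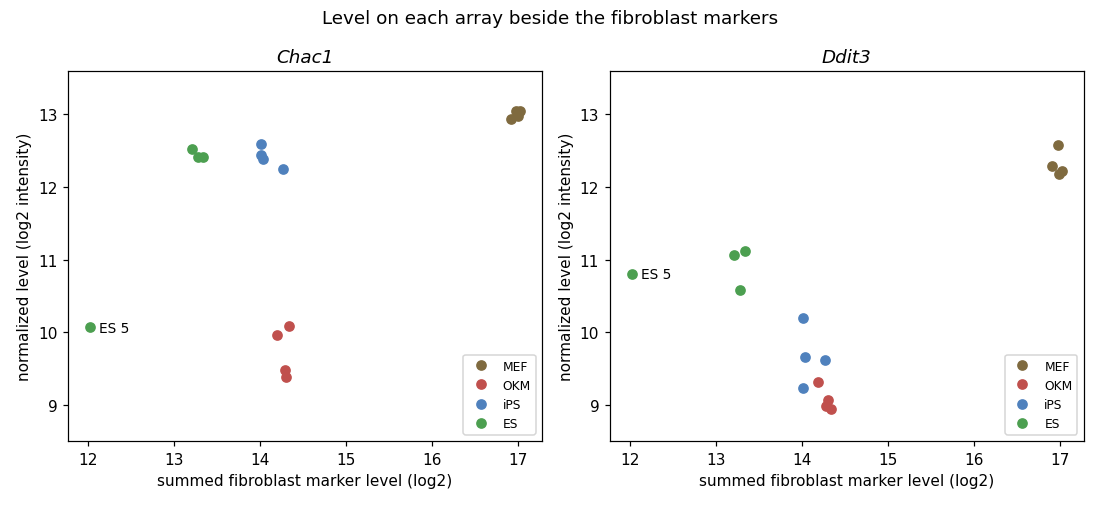
Level of Chac1 (left) and Ddit3 (right) on each array against the log2 of the summed linear levels of 12 fibroblast markers. OKM and iPS arrays share a narrow range of the marker sum, from 14.01 to 14.34, and separate in Chac1, while ES replicate 5 is low in both the marker sum and Chac1 but not in Ddit3. A link between marker sum and gene level was not tested.

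Against MEF, ES cells had Ddit4 higher, and Ddit3, Chac1 and Trib3 lower. These are 1 and 3 of the 10 genes, against 24.2% of all tested genes higher and 24.3% lower. Ddit4 rose by 1.97 ± 0.12 (3.92-fold, limma adjusted p = 4.549e-11) and Ddit3 fell by 1.42 ± 0.17 (2.68-fold, limma adjusted p = 5.062e-07). The calls of Chac1 (-1.15, limma adjusted p = 0.0103) and Trib3 (-1.14, limma adjusted p = 9.761e-05) rested on ES replicate 5. Without it their changes were -0.55 and -0.85 (limma adjusted p = 0.002139 and 2.473e-05). Both passed the adjusted p but not 2-fold, so neither was called. With array weights they were -0.71 and -0.84, again not called, and Trib3 was at -0.99 with no background correction.

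In iPS cells against MEF, Ddit4 rose (1.09 ± 0.12, limma adjusted p = 2.069e-07) and Ddit3 fell, 1 gene in each direction against 19% and 17.5% of all tested genes. The Ddit4 rise was 0.91 with cyclic loess, 0.88 with median scaling and 0.97 in the first 8 array columns, below 2-fold. Psat1 had its highest mean in iPS cells, 13.15, with levels of 13.31, 13.12, 13.04 and 13.14 that lay above every MEF and OKM array. Its difference from MEF was 0.79 ± 0.11 (1.73-fold, limma adjusted p = 4.735e-06).

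OKM cells against ES cells had Ddit3, Chac1 and Ddit4 lower and no gene higher, that is 3 and 0 of 10 against 16.5% and 18% of all tested genes (0 higher at an unadjusted limma p under 0.05 too). Chac1 differed by -2.13 ± 0.38 (limma adjusted p = 7.021e-05) although ES replicate 5 lay just below the highest OKM array, and by -2.73 without it. In the first 8 array columns alone, which hold that array, it was -1.52 and not called (limma adjusted p = 0.0536). Ddit3 differed by -1.82 ± 0.17 (limma adjusted p = 2.985e-08). The Ddit4 difference of -1.04 ± 0.12 (limma adjusted p = 4.334e-07) was -0.99 without OKM replicate 2 and -0.98 without OKM replicate 4. Atf4 was at -0.69 with all arrays and at -1.01, then called, without ES replicate 5.

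Ordered by group mean, MEF were the highest group for Ddit3, Chac1, Trib3, Sesn2, Atf4 and Atf3, and OKM cells the lowest for all of these but Atf3. For the brighter Ddit3 probe each neighbour in the order MEF, ES, iPS and OKM differed from the next with an adjusted p of 0.006512 or less. On the second probe the step from iPS to OKM did not pass (adjusted p = 0.1419). In Chac1 the order MEF, iPS, ES and OKM had 1 such step, from ES to OKM. Without ES replicate 5 the iPS and ES means changed places (iPS minus ES -0.03). The step from MEF to ES then passed (ES minus MEF -0.55, limma adjusted p = 0.002139). With all arrays, the brighter Sesn2 probe had the same order and the same step as Chac1. On the second Sesn2 probe the order was MEF, ES, iPS and OKM, and no step passed. In Trib3 the step from iPS to ES passed the adjusted p, and that from ES to OKM did not (OKM minus ES -0.18, adjusted p = 0.4698). Without ES replicate 5 the latter was -0.47 and passed (adjusted p = 0.005781). For Atf4 no neighbouring pair passed, but without ES replicate 5 the step from ES to OKM did (OKM minus ES -1.01, limma adjusted p = 0.0134). Ddit4 ran the other way, from ES through iPS and OKM to MEF, and its iPS and OKM levels did not differ beyond their spread (0.16, adjusted p = 0.2666). In Psat1 the step from MEF up to OKM passed the adjusted p, and those among OKM, ES and iPS cells did not. Asns on its brightest probe, Phgdh and Atf3 had no step that passed. Without ES replicate 5 the Atf3 step from ES to OKM passed (OKM minus ES -0.43, limma adjusted p = 0.03707). On the third Asns probe ES cells, at 11.96 ± 0.34, were above MEF, at 11.19 ± 0.07, by 0.77 ± 0.13 (adjusted p = 2.89e-05), against 0.40 ± 0.14 (adjusted p = 0.01621) on the brightest probe, both below 2-fold. Without ES replicate 5 the third probe gave 0.93 ± 0.09. Between iPS and ES cells the third probe differed by -0.31 (limma adjusted p = 0.05016), and by -0.47 without that array (limma adjusted p = 0.0003836). The dimmest Asns probe differed between OKM and ES cells by -0.71 (limma adjusted p = 0.05247), and by -0.85 without that array (limma adjusted p = 0.03361). None of these differences reached 2-fold.

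The wider pathway was followed through lists of genes that are not members. The lists share genes, so their counts are not independent. Atf5 and Cebpb are counted among the kinases and regulators, the other ATF4 targets and the family relatives. Herpud1 is counted among the other ATF4 targets and the XBP1 and ATF6 arm. Slc1a4 and Cth are counted among the other ATF4 targets and the serine, glycine and folate partners. Each list count stands beside the share of all tested genes called. That share was 16.1% higher and 15.8% lower in OKM against MEF, and 7.28% and 5.94% in iPS against OKM cells. In iPS against ES cells it was 11.2% and 7.28%. Of 14 tested kinases and regulators of the response, 4 (28.6%) fell in OKM cells against MEF and 0 rose (2 were higher at an unadjusted limma p under 0.05). The 4 were Atf5, a factor related to Atf4 (-1.99 ± 0.18, limma adjusted p = 1.795e-08), Eif2ak2, the kinase PKR (-1.51 ± 0.14), Impact, an inhibitor of the kinase GCN2 (-1.38 ± 0.12), and Cebpb, a C/EBP factor (-1.01 ± 0.20). Cebpb lost the call on leaving out MEF replicate 1 or 2 or OKM replicate 1 or 4 (-0.975 to -0.998). Ppp1r15a, the stress-induced subunit that directs eIF2 dephosphorylation, differed by -0.73 ± 0.12 without reaching 2-fold. The median of the list was -0.44. In iPS against OKM cells limma called 0 of the 14, while 6 were higher and 0 lower at an unadjusted p under 0.05.

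Of 20 other ATF4 targets, 6 (30%) fell and 2 (10%) rose in OKM cells against MEF, against 15.8% and 16.1% of all tested genes. The list median was -0.27. Fgf21, a secreted stress hormone, was detected on all MEF arrays and no OKM array and was at least 6.64-fold lower (limma adjusted p = 3.205e-10). The neutral amino acid transporter Slc1a4 fell by 1.63 ± 0.20, and Atf5, Cebpb, Vldlr and Herpud1 were the other 4. Cth, the last enzyme of cysteine synthesis, rose by 3.58 ± 0.24 (limma adjusted p = 3.869e-10), and Stc2, a secreted glycoprotein, by 1.47 ± 0.16. From OKM to iPS cells, Slc1a4 rose by 1.10 ± 0.20 (0.90 and not called without iPS replicate 1, 0.998 and not called without OKM replicate 3) and Fgf21 by at least 1.61-fold (not called without iPS replicate 4). These are 2 of the 20, against 7.28% of all tested genes. In the other direction 0 fell, against 5.94% (2 were lower at an unadjusted limma p under 0.05).

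In iPS against ES cells, 6 of these 20 targets were higher and 0 lower (1 was lower at an unadjusted limma p under 0.05), with a list median of 0.60. The shares of all tested genes were 11.2% higher and 7.28% lower. Without ES replicate 5, 4 were higher and 0 lower. The cystine transporter Slc7a11 was detected on all iPS and no ES arrays, at least 1.74-fold higher (limma adjusted p = 8.286e-10). Atf5 was higher by 1.69 ± 0.18 and the small stress protein gene Nupr1 by 1.31 ± 0.25, the latter no longer called without replicate 5. That array was the lowest ES array at 16 of the 20 targets, against 29.6% of all tested genes. The targets had a median of -0.75 against the mean of the other ES arrays, where the median of all genes was 0.00.

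Among 18 aminoacyl-tRNA synthetases, which charge tRNAs with their amino acids, Aars fell and Kars rose in OKM cells against MEF. That is 5.56% of the list in each direction, against 15.8% and 16.1% of all tested genes. Aars, the alanyl-tRNA synthetase, had means of 12.97 ± 0.08 in MEF, 11.43 ± 0.07 in OKM, 12.67 ± 0.07 in iPS and 13.35 ± 0.19 in ES cells. It fell by 1.54 ± 0.09 (limma adjusted p = 8.008e-11) and rose by 1.24 ± 0.09 at the second step (limma adjusted p = 6.151e-09), the 1 synthetase called there (5.56% of the list, against 7.28% of all tested genes). Kars, the lysyl-tRNA synthetase, rose by 1.27 ± 0.10 at the first step. The list medians were 0.06 at the first step and 0.42 at the second.

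The serine, glycine and folate partners moved in both directions. Of 16 tested, 5 rose and 3 fell in OKM cells against MEF, and 3 rose and 0 fell in iPS against OKM cells (2 were lower at an unadjusted limma p under 0.05). Of all tested genes 16.1% rose and 15.8% fell at the first step, and 7.28% and 5.94% at the second. Gldc, the glycine decarboxylase that feeds one-carbon units, rose by 3.57 ± 0.10 and again by 3.12 ± 0.10 (limma adjusted p = 2.31e-15 and 8.125e-14), from a mean of 6.48 in MEF to 10.05 in OKM and 13.17 in iPS cells. Mthfd1, a cytosolic folate enzyme, rose 2.83-fold at the first step (limma adjusted p = 9.491e-12), and Cbs, the first enzyme of cysteine synthesis, by 1.07 ± 0.17 at the second (0.52 and not called with no background correction).

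Aldh1l2, a mitochondrial folate dehydrogenase, fell by 2.95 ± 0.23 at the first step (limma adjusted p = 3.162e-09), and Srr, the serine racemase, by 1.41 ± 0.18. Shmt2, the mitochondrial enzyme that splits serine, was higher in OKM cells than in MEF by 0.62 ± 0.12 (limma adjusted p = 0.0001206), and Mthfd2, which follows it, differed by -0.41 ± 0.15 in the same comparison and was higher in iPS than in OKM cells by 0.90 ± 0.15 (limma adjusted p = 7.013e-05). None of these differences of Shmt2 and Mthfd2 reached 2-fold. The probe of Psph, the last enzyme of serine synthesis, was detected on 0 of 16 arrays and was not tested.

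Between iPS and ES cells, 3 of the 16 partners were higher and 3 lower in iPS cells, against 11.2% and 7.28% of all tested genes. The higher genes were Cth (1.30 ± 0.24), the glycine transporter Slc6a9 (1.26 ± 0.20) and the glutamine transporter Slc1a5 (1.22 ± 0.19). The lower genes were the folate dehydrogenase Aldh1l1 (2.84-fold lower), the mitochondrial folate carrier Slc25a32 (-1.01 ± 0.18) and Shmt1, the cytosolic counterpart of Shmt2 (-1.01 ± 0.14). Without ES replicate 5, 2 were higher and 2 lower, and Slc6a9 and Slc25a32 were no longer called. Slc25a32 was detected on 1 iPS array. Its call was also lost with no background correction (-0.41), an offset of 50 (-0.62), cyclic loess (-0.93) or array weights (-0.85). The same held on leaving out iPS replicate 3 or 4 or ES replicate 4. The Shmt1 call was also lost on leaving out iPS replicate 1, 2 or 3 (-0.903, -0.994 and -0.998) or ES replicate 1 or 2 (-0.96 and -0.98).

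**Figure D4:**
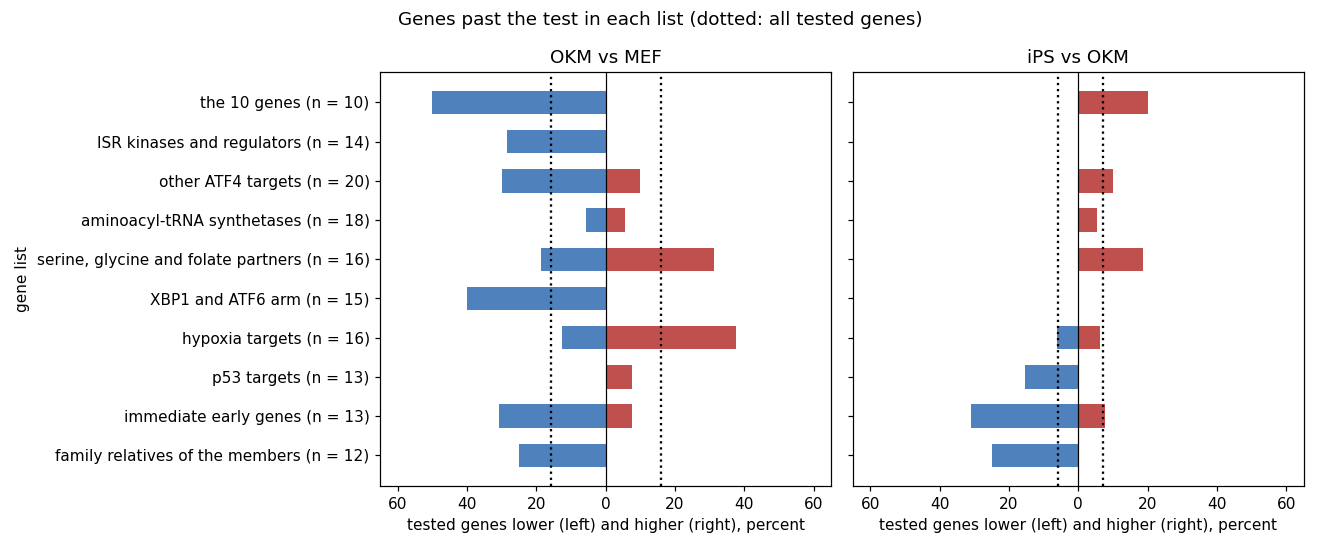
Percent of tested genes called lower (blue, left) and higher (red, right) for the 10 genes and each list, in OKM against MEF and in iPS against OKM, with dotted lines at the percent of all tested genes called in that direction. At the first step the bars of the 10 genes, the kinases and regulators, the XBP1 and ATF6 arm and the family relatives lie on the lower side alone. The lists share genes, with Atf5 and Cebpb in the bars of both the kinases and regulators and the family relatives. At the second step those of the 10 genes, the other ATF4 targets, the synthetases and the serine, glycine and folate partners lie on the higher side alone.

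The XBP1 and ATF6 arm, the branches of the unfolded protein response that raise chaperones and degradation factors, had 6 of 15 tested genes lower and 0 higher in OKM cells against MEF (also 0 higher at an unadjusted limma p under 0.05), with a median of -0.71. The shares of all tested genes were 15.8% lower and 16.1% higher. Selenos, a degradation factor of the endoplasmic reticulum, fell by 1.91 ± 0.08 (limma adjusted p = 3.987e-13), and the co-chaperones Dnajb9 and Dnajc3 by 1.75 ± 0.25 and 1.53 ± 0.11. In iPS against OKM cells limma called 0 of the 15, with 0 higher and 4 lower at an unadjusted p under 0.05 and a median of -0.12. In iPS against ES cells limma also called 0, with 6 higher and 3 lower at an unadjusted p under 0.05, and 0 without ES replicate 5. The list medians of this arm and of the 10 genes therefore had opposite signs at the second step, -0.12 and 0.42. No test of that difference was made.

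Neighbouring stress programs were followed at the same steps. Of 16 hypoxia targets, 6 (37.5%) rose and 2 (12.5%) fell in OKM cells against MEF, against 16.1% and 15.8% of all tested genes. Egln3, an oxygen-sensing hydroxylase, rose by 4.25 ± 0.22, Hk2, a hexokinase, by 2.19 ± 0.11 and Ndrg1 by 1.89 ± 0.14, while Adm (-1.67 ± 0.18) and the collagen hydroxylase P4ha2 (-1.59 ± 0.09) fell. At the second step Pdk1 rose by 1.38 ± 0.12 and Ndrg1 fell by 1.73 ± 0.14. That is 6.25% of the list in each direction, against 7.28% and 5.94% of all tested genes. Ddit4 and Sesn2 are also known as targets of hypoxia and of p53.

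Of 13 p53 targets, Bbc3 rose in OKM cells against MEF (1.16 ± 0.15) and 0 fell (3 were lower at an unadjusted limma p under 0.05). Of all tested genes 16.1% rose and 15.8% fell at this step, and 7.28% and 5.94% at the second. In iPS against ES cells 11.2% were higher and 7.28% lower. With the mean of all its kept probes Bbc3 was at 0.52 and not called. At the second step Sesn1, a relative of Sesn2, and Cdkn1a, an inhibitor of cell cycle kinases, fell by 1.18 ± 0.15 and 1.14 ± 0.12, and 0 rose (2 were higher at an unadjusted limma p under 0.05). In iPS against ES cells Fas (2.77 ± 0.18), Plk2 (1.43 ± 0.15) and Phlda3 (1.13 ± 0.09) were higher and 0 were lower (2 at an unadjusted limma p under 0.05), and the counts were the same without ES replicate 5. Phlda3 was at 0.37 with the mean of all its kept probes and was then not called.

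Shares of all tested genes were 15.8% lower and 16.1% higher at the first step, and 5.94% and 7.28% at the second. Of 13 immediate early genes, which respond within minutes to serum and stress, 4 fell and Ier3 rose (1.52 ± 0.11) at the first step. Fosb, detected on no OKM array, was at least 3.48-fold lower, and Egr2 (-2.57 ± 0.16), Ccn1 (-1.63 ± 0.10) and Jun were the others. At the second step Fos (-2.40 ± 0.18), Egr1 (-1.66 ± 0.24), Ccn1 (-1.38 ± 0.10) and Zfp36 fell and Fosl1 rose (1.31 ± 0.22). Of 12 family relatives of the members, 3 fell at the first step, Jdp2 (-2.74 ± 0.16), a partner of AP-1 factors, with Atf5 and Cebpb, and 3 fell at the second, Ddit4l (-1.22 ± 0.10), a relative of Ddit4, Sesn1 and the pseudokinase gene Trib2 (-1.15 ± 0.11). By limma 0 relatives rose at either step, with 2 and 1 higher at an unadjusted p under 0.05.

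Genes with the most similar profile were found as those with the smallest root mean square difference from the member over the 16 arrays, each gene centred on its own mean. For Ddit3 these were Cpxm1, Galnt10 and Niban1 (0.31, 0.32 and 0.32 log2 units, against a median of 1.37 over all genes). Niban1 had means of 9.04, 6.02, 6.63 and 8.24 in MEF, OKM, iPS and ES cells. Chac1, whose profile carries the low ES array, had no gene so near: Hsd17b1 was at 0.43, Smoc1 at 0.55 and Nrros at 0.61.

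The genes nearest to Trib3 were Inf2, Pmm2 and Cited2 (0.17 to 0.19), those nearest to Sesn2 were Atp6v1h, Gprin1 and Mtap (0.15 to 0.16), and those nearest to Atf4 were Mfsd5, the threonyl-tRNA synthetase gene Tars and Bud31 (0.41 to 0.46). For Ddit4 they were Rnf220, Tsfm and Ppp1cc (0.13 to 0.14). Nearest to Psat1 were Tubb4b, Psma3 and Nap1l1, and to Atf3 Aldh18a1, AI837181 and Dennd1a. Atf3 and Aldh18a1 both had their lowest ES level on replicate 5. For genes that varied little, such as Asns and Phgdh, nearness means little more than a flat profile. Nearest to Asns were Kansl2, Rprd1b and Hnrnpab, and to Phgdh Elp5, Rps19 and Atp5mpl.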

How the data were processed

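RNA from 16 dishes was measured on 1 array each. The authors deposited a non-normalized table that holds, per the file headers, a bead intensity on the linear scale and a detection p-value for each probe and array. The deposited intensities still held their background. The submitters' processing notes name GenomeStudio with no version. A normalized intensity table of the authors, whose negative values (26% of all) imply a background subtraction, was used as an alternative. The number of arrays limits the precision (median standard error of a log2 change 0.13).

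Log2 values were computed here from the deposited intensities by neqc of limma 3.58.1 (R 4.3.3), which corrects background by normexp with an offset of 16 and normalizes by quantiles. A probe was kept if 4 or more of the 16 arrays detected it at 0.01 (13782 probes). A gene with several kept probes was represented by the one with the highest mean over all arrays. Symbols of the platform annotation were updated through Entrez IDs (23962 probes) or accessions (9), and 1719 probes had no symbol. All 14 member probes kept their symbol. A mean per group was fitted over all 16 arrays (lmFit, eBayes), with two-sided tests and Benjamini-Hochberg adjustment over 9455 genes, or over all kept probes for single probes. The procedure was tested on simulated data. Where a gene was detected on no array of a group, a bound is given: the brighter group's mean against the dim group's mean of, per array, the higher of the lowest detected level and the gene's own.

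Text was limited to all members with every probe, up to 3 called genes per direction, list and step (OKM against MEF, iPS against OKM, iPS against ES), Psph, Shmt2, Mthfd2, Cebpb and Ppp1r15a, and the 3 nearest genes of each member. Vldlr, Herpud1 and Zfp36, outside this rule, are (with Jun at the first step) named to complete counts and were chosen after their values were seen. The members and lists were chosen with earlier results of these data known. The promoters came from RefSeq (GRCm38.p6), where all 10 genes matched by symbol, in 11 windows. Alternatives covered background correction, normalization, filters, probes, thresholds, weights, column position, the replicate number of the titles as a block and leaving out each array. The list counts and single probes without ES replicate 5 were alternatives chosen after seeing the data.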

Additional observations from a re-analysis of the deposited data

Results flagged for a closer look

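Of 40 sets of 4 arrays checked (10 genes in 4 groups), 2 held an array whose gap to the nearest other array, as a share of the whole range, passed Dixon's 95% critical value. Chance flags about 1 set in 20. Chac1 in ES replicate 5 read 10.06, where the other ES arrays read 12.41 to 12.53. Psat1 in OKM replicate 4 read 12.72, where the other OKM arrays read 12.97 to 13.02.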

How the results depend on the processing

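No called change of the 10 genes reversed under any of the alternatives. The number of genes called in OKM against MEF was 5, and 3 with no background correction and with an offset of 50. In iPS against OKM it was 2, and 1 with no background correction, an offset of 50 or the first 8 array columns, 5 with no fold threshold or a 1.5-fold threshold, and 1 to 2 on leaving out each array. In iPS against ES it was 1, and 2 with median scaling or the first 8 columns, 0 in the last 8 columns, and 3 with no fold threshold or a 1.5-fold threshold. In ES against MEF it was 4, and 2 with the replicate block, array weights or the last 8 columns, 7 with no fold threshold, and 2 to 4 on leaving out each array. In iPS against MEF it was 2, and 1 with cyclic loess, median scaling or the first 8 columns. In OKM against ES it was 3, and 5 with no fold threshold. The causes were not tested.

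The replicate numbers share no source in the labels and were not taken as pairs: deviations of same-numbered arrays correlated at -0.42 to 0.55, over 0.1 in 4 of 21 pairs. Of these 4, 3 were in OKM against MEF (0.55, 0.30 and 0.44), where the fourth pair was at 0.0079 and where the replicate block also called 5 genes. In ES against MEF the block put Chac1 at -0.59 and Trib3 at -0.86, not called. The counts of all genes called moved by over 1.5 times with no background correction, to 1978 (OKM against MEF), 670 (iPS against OKM), 937 (iPS against ES), 2273 (iPS against MEF) and 2126 (OKM against ES), and rose with lower fold thresholds. Median scaling moved the median of all genes to -0.10 in iPS against OKM and -0.11 in iPS against ES. Of 61 called changes of other named genes, 20 lost the call under some alternative and none reversed.

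Uncalled differences near 0 changed sign. Asns in OKM against MEF was -0.16 (cyclic loess), -0.091 (median scaling) and -0.021 (last 8 columns), and Phgdh -0.10, -0.083 and -0.047 (first 8 columns). With the first 8 columns Atf3 was 0.001 in iPS against OKM, 0.31 in iPS against ES and 0.30 in OKM against ES (0.042 in the authors' table), Trib3 was 0.068 and Psat1 0.097 in OKM against ES (0.012 with cyclic loess), and Shmt2 was 0.12 in iPS against OKM (0.013 with the mean of probes, 0.034 with weights). With the last 8 columns Chac1 was -0.12 in iPS against ES, Atf3 0.18 in ES against MEF, Atf4 0.086 and Phgdh 0.060 in iPS against MEF, and Ppp1r15a 0.043 in iPS against OKM. Phgdh was -0.092 in ES against MEF with cyclic loess. On leaving out each array the ranges were, in OKM against MEF, -0.019 to 0.11 for Asns and -0.032 to 0.090 for Phgdh. In iPS against OKM they were -0.22 to 0.049 for Atf3, -0.11 to 0.013 for Phgdh, -0.096 to 0.041 for Shmt2 and -0.070 to 0.046 for Ppp1r15a. In iPS against ES they were -0.51 to 0.11 for Atf3 and -0.034 to 0.79 for Chac1. In iPS against MEF they were -0.36 to 0.12 for Atf4 and -0.083 to 0.028 for Phgdh. In OKM against ES they were -0.43 to 0.18 for Atf3, -0.11 to 0.013 for Phgdh and -0.097 to 0.065 for Psat1. Dim probes (Atf3, Atf4) limit what can be said of those genes.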
